A study of Rattus norvegicus with 18 samples.

Results

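Before birth the lung epithelium secretes chloride and water follows into the future airspace. At birth the direction turns, and sodium absorption draws the liquid out of the airspace. Chloride enters secreting cells through the basolateral sodium-potassium-chloride cotransporter Slc12a2 (NKCC1) and leaves through apical channels such as Cftr. The ClC family holds plasma membrane channels such as Clcn2 and exchangers of endosomes such as Clcn3. Aquaporins are the water channels of the cell membrane. Aqp1 is known from the lung endothelium, and Aqp3 and Aqp4 from the basolateral membrane of airway epithelium in the rat.

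The transcripts described here are those of 7 genes of water and chloride transport: Aqp1, Aqp3, Aqp4, Cftr, Slc12a2, Clcn2 and Clcn3. They are 7 of 14217 genes named on the array, and all probe sets annotated to them were taken, 13 of the 31042 that are not controls. Lungs of Wistar rats were hybridised to 18 Affymetrix arrays, in 6 groups of 3. The stages were fetal day 19 (FD19), fetal day 22 (FD22) and 5 h after birth (P1), with polysomal RNA and total RNA at each. Each of 9 lysates gave both kinds of RNA, and the polysomal kind came from mRNA with more than 7 ribosomes. Fetuses were delivered by Caesarean section and newborns vaginally, so postnatal age and mode of delivery cannot be told apart at P1. Whole lungs were used, so fewer cells of a type and less RNA per cell cannot be told apart either.

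Values are signals (linear intensity), and as deposited the arrays shared a 2% trimmed mean of 150. Array medians lay between 51.6 and 73.5, and the array numbered 1 had the lowest median in 6 of 6 groups. The number of arrays limits the precision. Lung markers were present on all arrays: the surfactant gene Sftpc had signals of 3836 to 9138.7 and the lung transcription factor Nkx2-1 786.3 to 1559.9. The FD22 lysate numbered 2 stood apart in liver transcripts. The liver gene Alb read 4891.5 in its polysomal RNA and 5662 in its total RNA, against 31.6 to 147 on the other arrays, so FD22 results are also given without that lysate. Heart transcripts were uneven in other lysates. Myh6 ranged from 96 to 1157.2, with 1157.2 in total RNA of FD19 lysate 1 and 1062.9 in total RNA of FD22 lysate 3.

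A change is a difference of log2(signal + 5.5), given with its SE from limma, and it understates the change of dim probe sets. A probe set counted as called where the Benjamini-Hochberg adjusted p of limma, over 21675 probe sets above a signal of 40.8 on at least 3 arrays, was under 0.05. Of the 13 probe sets 12 were tested. The exception was that of Clcn2, with signals of 3 to 37.1. Aqp4 1387397_at was above 40.8 on 7 arrays, none of them at FD19, so it was tested because of the stages at which it is high. Genes with several probe sets are represented by the one with the highest mean. The FD22 arrays serve in both successive stage comparisons, which are therefore not independent.

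RefSeq promoter windows (GRCr8, 250 bases before to 50 after the start) were present for 7 of 7 genes. Short stretches are shown, 5′ to 3′, for the 4 genes with a called change between stages, with the matched motif in capitals. The 6 motifs, searched on both strands, were chosen after the sequences had been seen.
Aqp1, TATA box TATAAA, chr4:85812742-85812771, plus strand: cccacccagcccTATAAAtaggcccagccc
Aqp3, TATA box TATAAA, chr5:61040704-61040733, minus strand: ggcgcataaacaTATAAAagggcgccacct
Aqp4, NKX2-1 motif CTCAAG, chr18:6798978-6799007, minus strand: agaaaaaacggtCTCAAGtgctttctttgc
Cftr, cAMP response element TGACNTCA, chr4:47527631-47527660, plus strand: ttggaagcaaaTGACATCAcctcaggactg
The TATA letters begin at position -30 from the Aqp1 start and at -38 from the Aqp3 start, and the Cftr match begins at position 14. TATAAA occurred in 14.2% of 33469 windows, TGACNTCA in 10.2% and CTCAAG in 15.8%. The other motifs searched were the glucocorticoid half-site AGAACA (20.7% of windows), the hypoxia response core ACGTG (19.3%) and the forkhead motif TGTTTAC (3.78%), which had no match in the windows of these 4 genes. Aqp4 has a second window, and none of the 6 motifs was found in it. Genes not shown here also had matches. Clcn3 had TGACNTCA at position -63 and ACGTG at -76, and TGACNTCA at -48 in a second window. Clcn2 had CTCAAG at -250. The motifs are thus not particular to the genes with a called change. A match describes letters and shows no binding.

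Cftr, the cAMP-regulated apical chloride channel, was high at FD22 and lower at the stages on either side. In polysomal RNA its signals were 183, 161.4 and 226.2 at FD19, 388.6, 361.9 and 409 at FD22, and 171.3, 215.1 and 252.6 at P1. In total RNA they were 160.1, 234.7 and 219.1 at FD19, 369.2, 378.3 and 382.2 at FD22, and 140.3, 215 and 193 at P1. The FD22 arrays lay above the FD19 and P1 arrays in both kinds of RNA.

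In total RNA Cftr rose by 0.88 ± 0.18 at FD22 against FD19 (adjusted p = 0.00234) and then fell by 1.04 ± 0.18 at P1 against FD22 (adjusted p = 0.00283). In polysomal RNA the same comparisons gave 1.01 ± 0.18 (adjusted p = 0.000767) and -0.86 ± 0.18 (adjusted p = 0.00668). P1 against FD19 was not called, at -0.16 in total RNA (95% interval -0.55 to 0.22) and 0.16 in polysomal RNA (-0.23 to 0.54). Without the FD22 lysate numbered 2 Cftr still rose by 0.88 and fell by 1.04 in total RNA (adjusted p = 0.0102 and 0.015). In polysomal RNA both calls held under each of 18 alternatives of the processing, leaving out that lysate among them. The changes there lay between 0.906 and 1.142 and between -0.987 and -0.71.

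**Figure D1:**
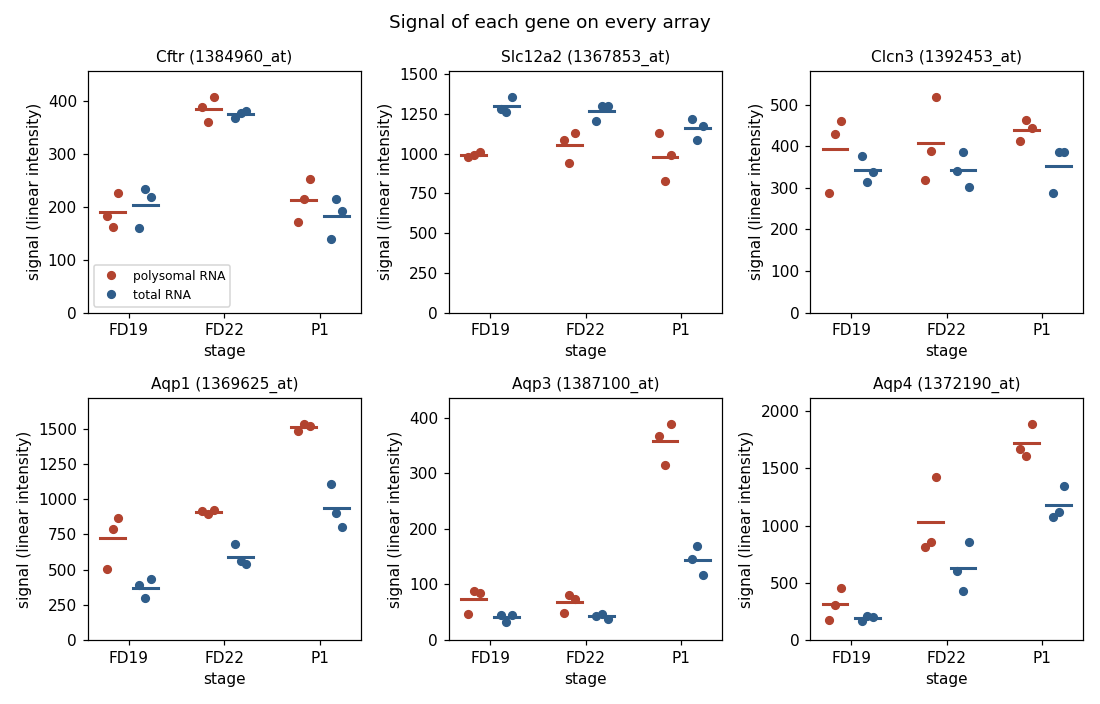
Signal (linear intensity, from 0) of 6 genes on each of the 18 arrays by stage, with polysomal RNA on the left and total RNA on the right of each stage; points are arrays and bars are means of 3. Cftr peaks at FD22, Aqp3 lies higher at P1 than at FD22, and Slc12a2 and Clcn3 had no called change between stages.

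Slc12a2, which loads chloride into the cell, showed no called change between stages. Its total RNA averaged 1301 ± 50.9 at FD19, 1268.6 ± 54.5 at FD22 and 1158.9 ± 66.8 at P1 (SD, n = 3 each). The change in total RNA was -0.04 at FD22 against FD19 (95% interval -0.28 to 0.21) and -0.13 at P1 against FD22 (-0.37 to 0.11). In polysomal RNA these were 0.08 (-0.16 to 0.32) and -0.11 (-0.35 to 0.13).

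Clcn3, a chloride-proton exchanger of endosomes, had 4 probe sets and no called change between stages. At FD22 against FD19 their changes lay between -0.45 and 0.14 in total RNA, and at P1 against FD22 between 0.00 and 0.27. In polysomal RNA they lay between -0.37 and 0.21 at FD22 against FD19 and between -0.06 and 0.24 at P1 against FD22. At P1 against FD19 in polysomal RNA 1380547_at was at 0.38 (95% interval 0.04 to 0.73, adjusted p = 0.0944) and 1378232_at at -0.43 (-0.85 to -0.01, adjusted p = 0.117), on opposite sides of 0. The 4 did not vary together: across 18 arrays their pairwise Pearson r lay between -0.43 and 0.75, as a description. Clcn2, a plasma membrane chloride channel, was below the filter on all 18 arrays and has no tested value.

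Aqp4, a water channel of basolateral membranes, had the largest change of the 12 tested probe sets at FD22 against FD19 in total RNA, on probe set 1372190_at. In polysomal RNA its signals were 812.7, 858.5 and 1427.9 at FD22 and 174.8, 307.1 and 457 at FD19. In total RNA they were 602, 423.4 and 854.5 at FD22 and 162.3, 209.7 and 200.9 at FD19. The stages did not overlap in either RNA. Aqp4 rose by 1.64 ± 0.28 in total RNA (adjusted p = 0.000462) and by 1.76 ± 0.28 in polysomal RNA (adjusted p = 0.000269).

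At P1 Aqp4 read 1672.6, 1612.1 and 1888.8 in polysomal RNA and 1072.3, 1120.2 and 1348.1 in total RNA, all above the FD22 arrays of the same RNA. The further change against FD22 did not pass: 0.96 ± 0.28 in total RNA (adjusted p = 0.0651) and 0.78 ± 0.28 in polysomal RNA (adjusted p = 0.0958). Without the FD22 lysate numbered 3 these were 1.21 (adjusted p = 0.0221) and 1.04 (adjusted p = 0.0241). Over the whole interval Aqp4 was 2.60 ± 0.28 higher in total RNA (adjusted p = 1.69e-06) and 2.54 ± 0.28 higher in polysomal RNA (adjusted p = 2.04e-06) at P1 than at FD19. Without the FD22 lysate numbered 2 the first rise was 1.89 in total RNA (adjusted p = 0.000322). In polysomal RNA the first rise was called under each of 18 alternatives, at 1.401 to 2.081.

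The other Aqp4 probe sets had changes of the same sign, which for 1387397_at is no support. That probe set was above the filter signal on 0 FD19 arrays and was tested because of the stages at which it is high. 1368981_at rose by 1.24 ± 0.36 in total RNA at FD22 against FD19 (adjusted p = 0.022), a call that ended without FD19 lysate 1 (adjusted p = 0.0756), FD19 lysate 2 (0.0531) or FD22 lysate 3 (0.12). 1387397_at changed by 0.74 ± 0.29 (adjusted p = 0.0924). At P1 against FD22 neither was called in either RNA by limma without the replicate block. In total RNA 1368981_at was at 0.83 (adjusted p = 0.226) and 1387397_at at 0.395 (0.548). In polysomal RNA they were at 1 (adjusted p = 0.0915) and 0.498 (0.345). The P1 and FD22 arrays overlapped for 1368981_at in total RNA and for 1387397_at in polysomal RNA. Across the 18 arrays the 3 correlated at r of 0.89 to 0.93, as a description.

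Alveolar and airway markers rose before birth, as Aqp4 and Cftr did, but so did markers of other cell types. At FD22 against FD19 in total RNA 9 of 9 type I markers rose, and 9 of 11 type II markers rose while 1 fell. Without the FD22 lysate numbered 2, 8 of the type II markers rose and 0 fell. Of 8 airway secretory and ciliated markers 7 rose. In the same comparison 11 of 14 endothelial and 2 of 4 mesothelial markers rose. Of 10 smooth muscle and mesenchyme markers 1 rose and 4 fell, and of 5 erythroid markers 0 rose and 2 fell. Of all named genes tested 9.68% rose and 10.4% fell. The summed type I signal was 15191 to 16507 at FD22 and 5967 to 6789 at FD19. At P1 against FD22 in total RNA 0 of 9 type I, 0 of 11 type II and 0 of 8 airway markers were called by limma, with 2, 1 and 1 at an unadjusted p under 0.05. Their part in the Aqp4 and Cftr results was not tested.

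Aqp3, a channel that passes glycerol as well as water, was low at both fetal stages and high after birth. In polysomal RNA its signals were 367.6, 314.8 and 388.6 at P1 and 48.7, 80 and 73.7 at FD22. In total RNA they were 145, 168.2 and 115.9 at P1 and 42.4, 47 and 38 at FD22. No P1 array overlapped the FD22 arrays of its RNA.

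Aqp3 rose by 1.62 ± 0.23 in total RNA (adjusted p = 0.000401) and by 2.33 ± 0.23 in polysomal RNA (adjusted p = 8.85e-06) at P1 against FD22. By p-value it ranked 52 of 21675 in total RNA and 8 in polysomal RNA. FD22 against FD19 gave 0.08 (95% interval -0.40 to 0.55) in total RNA and -0.10 (-0.57 to 0.38) in polysomal RNA. Without the FD22 lysate numbered 2 the P1 rise was 1.69 in total RNA (adjusted p = 0.0019) and 2.46 in polysomal RNA (adjusted p = 8.22e-05).

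Among airway basal cell markers the keratin Krt15 lay higher at P1 without overlap, with signals of 443.7, 220.4 and 213.4 at P1 and 145.4, 149.3 and 136.8 at FD22 in total RNA. The other 4 tested markers summed to 172.4 to 299.2 at P1 and 145.3 to 242.7 at FD22, and these ranges overlapped. Of 5 tested markers 0 were called in total RNA at P1 against FD22 by limma (1 at an unadjusted p under 0.05) and 1, Krt15, in polysomal RNA (1.34 ± 0.28, adjusted p = 0.00628). The defining markers Tp63 and Ngfr were below the filter on all arrays. Their part in the Aqp3 result was not tested.

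Aqp1, the water channel of endothelium, climbed over the whole interval. In polysomal RNA the signals were 507.4, 791.6 and 866 at FD19, 912.7, 893.6 and 925.2 at FD22, and 1488.2, 1534.9 and 1518.7 at P1. In total RNA they were 386.6, 301 and 429.5 at FD19, 680.2, 557.8 and 537.2 at FD22, and 1111.2, 902.5 and 801.9 at P1. Successive stages did not overlap in either RNA.

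Aqp1 was 1.32 ± 0.18 higher in total RNA at P1 than at FD19 (adjusted p = 1.61e-05) and 1.10 ± 0.18 higher in polysomal RNA (adjusted p = 0.000108). The difference at FD22 against FD19 was 0.67 ± 0.18 in total RNA (adjusted p = 0.013) and 0.37 ± 0.18 in polysomal RNA (adjusted p = 0.175). The first of these was lost without FD19 lysate 2 (adjusted p = 0.0867) or FD22 lysate 1 (0.0662). The step at P1 against FD22 was 0.66 ± 0.18 in total RNA (adjusted p = 0.0418) and 0.73 ± 0.18 in polysomal RNA (adjusted p = 0.0144).

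The P1 step of Aqp1 in total RNA kept its sign but not its call under 9 of 18 alternatives. The call was lost on leaving out FD22 lysate 2 (adjusted p = 0.142) or 3 (0.136), or P1 lysate 1 (0.208), 2 (0.0992) or 3 (0.0609). It was also lost with no filter (0.0596), quantile normalization (0.0747), no variance trend (0.0783) or arrays numbered 2 and 3 only (0.0694). In polysomal RNA it was lost without FD22 lysate 2 (0.0545) or P1 lysate 2 (0.0548). The second Aqp1 probe set, 1387651_at, was among the stage comparisons called only for P1 against FD19, at 0.67 ± 0.21 in total RNA (adjusted p = 0.0257) and 0.73 ± 0.21 in polysomal RNA (adjusted p = 0.0138). The total RNA call ended without P1 lysate 1 (adjusted p = 0.152), without any one FD19 lysate (0.0512 to 0.0672) and with arrays numbered 2 and 3 only (0.153). The polysomal call ended without FD19 lysate 1 (adjusted p = 0.1) or P1 lysate 3 (0.0859).

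Endothelial markers rose as Aqp1 did, and before birth alveolar and airway markers rose too. In total RNA 11 of 14 rose at FD22 against FD19, and at P1 against FD22 3 rose and 1 fell (1 and 0 without the FD22 lysate numbered 2). Their summed signal was 5533 to 6056 at FD19, 9425 to 10050 at FD22 and 10778 to 11722 at P1. Of 4 mesothelial markers 2 rose at FD22 against FD19 and 1 at P1 against FD22. Without the FD22 lysate numbered 2, 1 rose in each comparison. The summed mesothelial signal in total RNA was 986 to 1094 at FD19, 1367 to 1684 at FD22 and 1808 to 2161 at P1. The part of endothelial or mesothelial markers in the Aqp1 result was not tested. Of 5 erythroid markers, a second known source of Aqp1, 0 rose and 2 fell at FD22 against FD19. At P1 against FD22 0 of the 5 were called by limma in total RNA. Of all named genes tested 9.68% rose and 10.4% fell in the first comparison, and 2.62% rose and 2.32% fell in the second. The part of erythroid markers in the Aqp1 result was not tested.

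Among the 12 tested probe sets 4 rose and 0 fell in total RNA at FD22 against FD19, where 16.2% of all probe sets were called, 8.42% higher and 7.82% lower. At P1 against FD22 2 rose and 1 fell, where 3.97% of all were called, 2.21% higher and 1.76% lower. At P1 against FD19 6 rose and 0 fell, where 26.2% were called, 12.4% higher and 13.7% lower. In polysomal RNA 3 rose and 0 fell at FD22 against FD19 (15.9% of all called, 8.22% higher and 7.7% lower). There 2 rose and 1 fell at P1 against FD22 (8.34% called, 3.79% higher and 4.55% lower), and 6 rose and 0 fell at P1 against FD19 (28.9% called, 13.1% higher and 15.8% lower). All 6 at P1 against FD19 in each RNA were aquaporin probe sets, and 1 of them was Aqp4 1387397_at, which was tested only because of the later stages. Several probe sets report one gene, so these counts are not counts of genes.

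**Figure D2:**
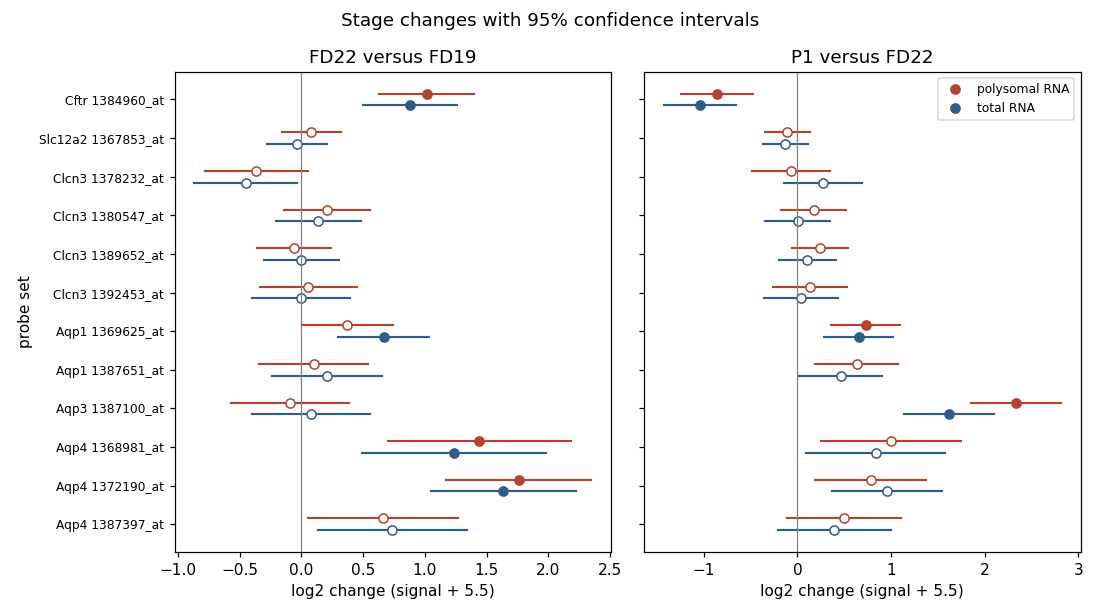
Change in log2(signal + 5.5) of the 12 tested probe sets at FD22 against FD19 and at P1 against FD22, in polysomal and total RNA; bars are 95% confidence intervals of limma and filled points were called. Cftr is the only one called in both directions, and Aqp3 changes at P1 against FD22.

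The polysomal signal was then set against the total signal of the same lysate. Because both kinds of array shared a trimmed mean, the ratio is relative. Centring each array on its median shifted the median of all probe sets by 0.17 at FD19, 0.23 at FD22 and 0.20 at P1, and by 0.20 in the mean of the stages. With that centring 70.3% of the calls in the mean were higher in polysomal RNA, against 40.6% as deposited.

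Aqp3 was relatively enriched in polysomal RNA, though the total signal under its fetal ratios lay near the filter signal. Its polysomal over total ratio was 1.05, 2.51 and 1.81 at FD19, 1.13, 1.63 and 1.82 at FD22, and 2.48, 1.84 and 3.25 at P1, above 1 in each lysate. On the log2 scale the mean over the stages was 0.88 ± 0.13 (adjusted p = 3.28e-05). The ratio was called at FD19 (0.75, adjusted p = 0.0248) and at P1 (1.30, adjusted p = 0.000644), and not at FD22 (0.58, adjusted p = 0.089). The FD19 call ended without FD19 lysate 2 (adjusted p = 0.312) or 3 (0.139).

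Aqp1 was enriched as well, with ratios of 1.31, 2.60 and 2.00 at FD19, 1.34, 1.60 and 1.72 at FD22, and 1.34, 1.70 and 1.89 at P1. The mean was 0.75 ± 0.10 (adjusted p = 1.1e-05) and each stage was called. The FD22 call (0.62, adjusted p = 0.022) ended without FD22 lysate 2 (adjusted p = 0.107) or 3 (0.165) and with quantile normalization (0.0542), and the P1 call (0.70, adjusted p = 0.00956) without P1 lysate 2 (0.0775) or 3 (0.107). For 1387651_at the mean was 0.29 ± 0.12 (adjusted p = 0.056), and 0.29 ± 0.10 with the lysate as a block (adjusted p = 0.0273).

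Of the 3 Aqp4 probe sets 1 was called in the mean ratio. 1372190_at averaged 0.63 ± 0.16 (adjusted p = 0.0042), 1368981_at 0.03 ± 0.20 (adjusted p = 0.912) and 1387397_at 0.14 ± 0.17 (adjusted p = 0.514). The difference between the probe sets was not tested. 1372190_at was not called at any one stage, but was with the lysate as a block at FD19 (adjusted p = 0.0129), FD22 (0.00587) and P1 (0.0226).

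Slc12a2 lay on the other side. Its ratio was 0.761, 0.787 and 0.745 at FD19, 0.903, 0.725 and 0.869 at FD22, and 0.930, 0.761 and 0.844 at P1, below 1 in each lysate. The mean was -0.30 ± 0.07 (adjusted p = 0.00122), but -0.10 with median centring (adjusted p = 0.297). Of 18 alternatives that was the 1 that lost the call, so the call depends on whether arrays are centred on their median. The FD19 call (-0.39, adjusted p = 0.0229) ended with median centring (adjusted p = 0.265), with arrays numbered 2 and 3 only (0.069) and on leaving out FD19 lysate 1 (0.098), 2 (0.108) or 3 (0.143). Cftr averaged 0.05 ± 0.11 (adjusted p = 0.707; 95% interval -0.17 to 0.27), and 0.25 with median centring (adjusted p = 0.039). Of the 4 Clcn3 probe sets 1389652_at was called, at 0.35 ± 0.08 (adjusted p = 0.00246).

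**Figure D3:**
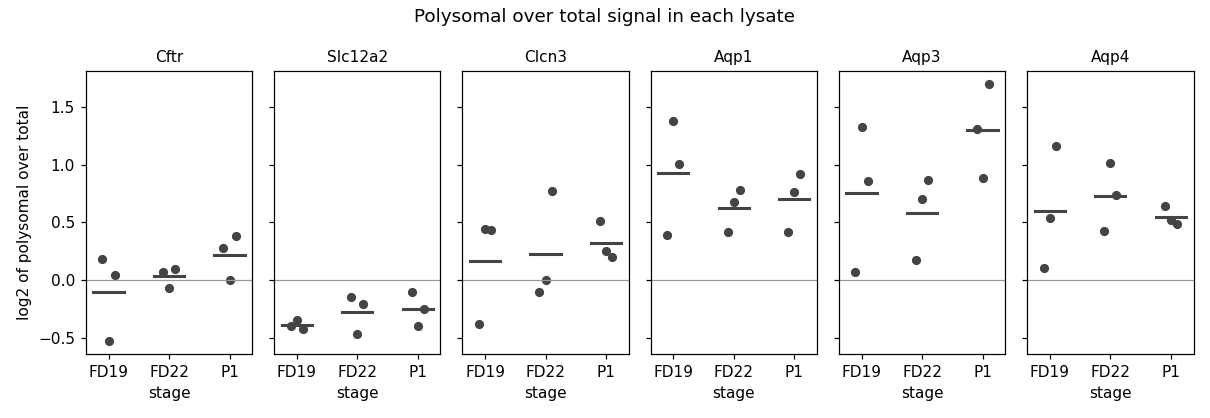
Log2 of the polysomal over the total signal, each plus 5.5, for each lysate by stage, with bars at the mean of 3. Aqp1 and Aqp3 lie above 0 and Slc12a2 below 0 in each lysate, on the scale deposited.

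Of the 12 tested probe sets 2 were higher and 1 lower in polysomal than in total RNA at FD19, where 20.9% of all were called, 9.97% higher and 10.9% lower. At FD22 1 was higher and 0 lower (15.4% of all called, 6.76% higher and 8.6% lower), and at P1 2 were higher and 0 lower (18.5% called, 8.12% higher and 10.4% lower). In the mean 4 were higher and 1 lower (46.4% called, 18.8% higher and 27.6% lower). With the lysate as a block 2 were called at FD22 and 4 at P1, those at P1 being Aqp1, Aqp3, Aqp4 1372190_at and Clcn3 1389652_at (adjusted p = 0.0228). No change of the ratio between stages was called for a member, where 0% were called at FD22 against FD19, 0.0138% at P1 against FD22 and 0.115% at P1 against FD19. At an unadjusted p under 0.05 there were 0, 1 and 0 members. The 1 was Aqp3 at P1 against FD22 (0.72 ± 0.32, adjusted p = 1).

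Other genes of the same transport were taken from lists, in which Aqp5 and Clic5 are also type I markers, Car4 an endothelial and Slc4a1 an erythroid marker. Of the 11590 named genes tested in total RNA 9.68% rose and 10.4% fell at FD22 against FD19, and 2.62% rose and 2.32% fell at P1 against FD22. Several list counts below are near these shares. At FD22 against FD19 5 of 10 tested sodium absorption genes rose and 0 fell. Among them were Scnn1a, the alpha subunit of the epithelial sodium channel (2.65 ± 0.26, adjusted p = 2.43e-06), Scnn1g, its gamma subunit (1.75 ± 0.21, adjusted p = 1.37e-05), and the kinase Sgk1 (1.85 ± 0.17, adjusted p = 8.9e-07). Without the FD22 lysate numbered 2, 4 of the 10 rose. At P1 against FD22 0 of the 10 were called by limma, with 6 at an unadjusted p under 0.05. That count depended on the scaling, with 2 higher under median centring and 1 lower under quantile normalization. The median change of the list was 0.65 at FD22 against FD19, and -0.01 over all 11590 genes tested.

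Of 5 other aquaporins 1 was called at FD22 against FD19, Aqp5, the apical water channel of type I cells. Its total RNA averaged 120.5 ± 25.2 at FD22 and 21.3 ± 9 at FD19 (SD, n = 3 each). Aqp5, Clca1 and Car4 were below the filter signal on all 3 FD19 arrays of total RNA and were tested because of the groups in which they are high, so no size of change is given for them. Of 4 potassium channel genes that sustain secretion 2 rose: Kcne2 (1.30 ± 0.26, adjusted p = 0.00161) and Kcnq1 (0.91 ± 0.27, adjusted p = 0.0251). Of 4 other ClC genes 1 rose, Ostm1, the beta subunit of a lysosomal exchanger (0.89 ± 0.17, adjusted p = 0.00128).

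Of 16 calcium-activated or volume-regulated channel genes 6 rose and 0 fell at FD22 against FD19 (4 without the FD22 lysate numbered 2 and 3 with median centring). Among the 6 were Lrrc8d (0.54 ± 0.14, adjusted p = 0.0095) and Lrrc8b (0.61 ± 0.16, adjusted p = 0.0152), subunits of the volume-regulated channel, and Clca1, a secreted regulator of calcium-activated chloride currents, at 68.5 ± 14.4 at FD22 and 27.7 ± 6.7 at FD19 (SD, n = 3 each). At P1 against FD22 1 of the 16 fell, Pacc1, a proton-activated chloride channel (-0.71 ± 0.17, adjusted p = 0.0182), a call lost without the FD22 lysate numbered 2 (0.0974). Of 5 CLIC genes 2 rose at FD22 against FD19, Clic2 (1.79 ± 0.16, adjusted p = 8.9e-07) and Clic5 (1.68 ± 0.17, adjusted p = 2.84e-06). At P1 against FD22 2 others rose, Clic4 (0.85 ± 0.10, adjusted p = 9.81e-05) and Clic1 (0.41 ± 0.11, adjusted p = 0.0428), of which Clic1 was not called without the FD22 lysate numbered 2 (0.0623) or with quantile normalization (0.115).

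Of 11 genes of Cftr partners and the cAMP pathway 2 rose at FD22 against FD19: Vipr1, a receptor for vasoactive intestinal peptide (1.64 ± 0.33, adjusted p = 0.00179), and the scaffold Nherf2 (1.16 ± 0.23, adjusted p = 0.00136). Vipr1 was dim at FD19 in total RNA, at 38.1 ± 22.7 (SD, n = 3) with 1 array above the filter signal, so its size of change is uncertain. At P1 against FD22, when Cftr fell, 2 of the 11 rose: the membrane linker Ezr (0.92 ± 0.14, adjusted p = 0.00087) and the protein kinase A subunit Prkar2a (0.57 ± 0.11, adjusted p = 0.00693). Of 9 other cation-chloride cotransporter genes and their kinases 1 rose at FD22 against FD19, Cab39 (0.46 ± 0.12, adjusted p = 0.0102), and 0 were called at P1 against FD22 by limma (2 at an unadjusted p under 0.05). Of 11 anion exchanger and bicarbonate genes 2 rose and 1 fell at FD22 against FD19, with Car4, a membrane carbonic anhydrase, at signals of 42.1 ± 17.1 at FD22 and 3.6 ± 2.4 at FD19 (SD, n = 3 each), the anion exchanger Slc4a2 at a change of 0.46 ± 0.15 (adjusted p = 0.0491) and the erythroid exchanger Slc4a1 at -1.08 ± 0.28 (adjusted p = 0.013). With median centring Lrrc8d (adjusted p = 0.0505), Cab39 (0.0578) and Slc4a2 (0.162) were not called at FD22 against FD19.

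**Figure D4:**
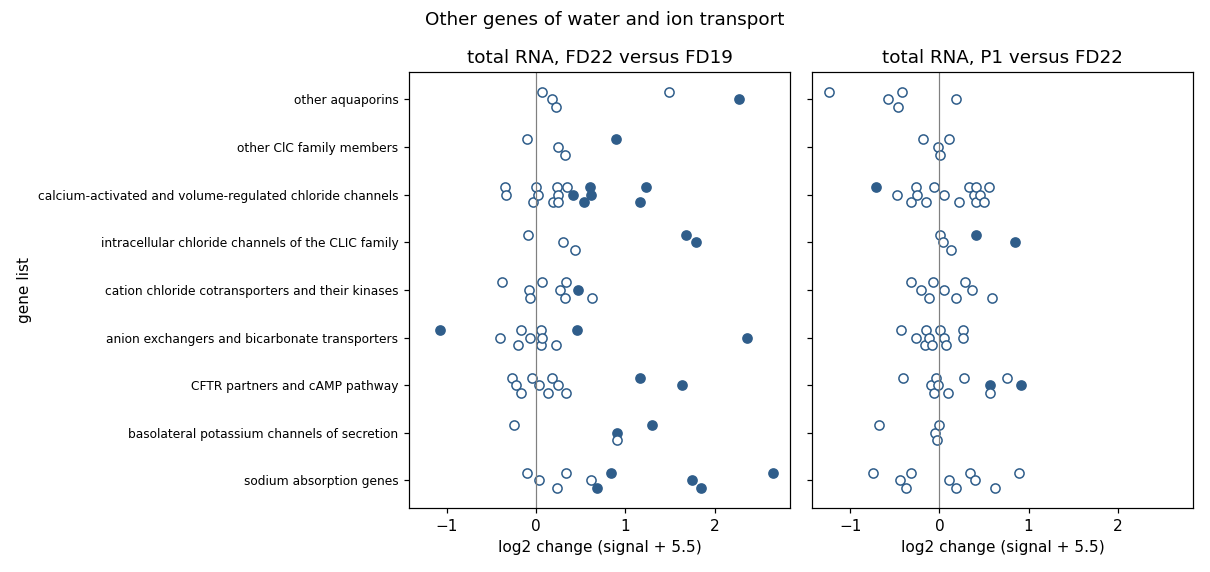
Change in log2(signal + 5.5) in total RNA of the tested genes of 9 lists at FD22 against FD19 and at P1 against FD22; each point is a gene and filled points were called. Sodium absorption genes have 5 filled points on the left and 0 on the right, where median centring would fill 2 higher and quantile normalization 1 lower.

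The same lists were read in the polysomal over total ratio, as the mean of the stages. All 9 lists held called genes there, where 2893 of the 11590 genes tested were higher and 2578 lower in polysomal RNA. Of the 11 genes of Cftr partners and the cAMP pathway 6 were higher and 1 lower, with the SNARE protein Snap23 at 0.62 ± 0.09 (adjusted p = 3.75e-05), the Golgi protein Gopc at 0.52 ± 0.12 (adjusted p = 0.00201) and the adenylyl cyclase Adcy6 at 0.48 ± 0.11 (adjusted p = 0.00217). Of 4 potassium channel genes 2 were higher: Kcne2 (1.26 ± 0.15, adjusted p = 2.28e-06) and Kcne3 (0.72 ± 0.21, adjusted p = 0.0102). The median ratio was 0.30 for the first list and 0.46 for the second, and 0.00 over all genes tested.

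Genes listed with the chloride channels lay on both sides of the ratio, and a place on a list does not show channel activity. Of the 16 calcium-activated or volume-regulated channel genes 5 were higher and 3 lower. Clns1a (0.55 ± 0.09, adjusted p = 5.1e-05) and Lrrc8d (0.49 ± 0.08, adjusted p = 6.11e-05) were higher and Ttyh1 lower (adjusted p = 0.000117). Ttyh1 was above the filter signal on 3 total arrays of each stage, but on 0, 1 and 1 polysomal arrays at FD19, FD22 and P1. It was tested because of the total arrays, where it is high, so no size is given. Of the 5 CLIC genes Clic1 (0.84 ± 0.06, adjusted p = 8.6e-09) and Clic4 (0.51 ± 0.06, adjusted p = 2.39e-06) were higher and Clic2 (-0.99 ± 0.09, adjusted p = 1.65e-07) was lower. Of the 4 other ClC genes Ostm1 was higher (0.28 ± 0.10, adjusted p = 0.0261) and the exchanger Clcn4 lower (adjusted p = 0.00226), the second being above the filter signal on 4 of 18 arrays, with no size given. Of the 5 other aquaporins 0 were higher and 1 lower, Aqp12a (-0.53 ± 0.12, adjusted p = 0.00221).

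Of the 10 sodium absorption genes 2 were higher in polysomal RNA, the sodium pump subunit Atp1b3 (0.63 ± 0.07, adjusted p = 5.11e-07) and the ubiquitin ligase Nedd4l (0.29 ± 0.10, adjusted p = 0.0313). In the same list 1 was lower, Scnn1b, the beta subunit of the epithelial sodium channel (-0.53 ± 0.11, adjusted p = 0.000661). Of the 9 cotransporter genes Cab39 was higher (0.45 ± 0.07, adjusted p = 3.8e-05) and Slc12a9 lower (-0.51 ± 0.10, adjusted p = 0.000472). Of the 11 anion exchanger and bicarbonate genes 1 was higher and 3 lower, with Car4 higher (adjusted p = 0.0148; above the filter signal on 8 of 18 arrays), Slc4a1 at -0.97 ± 0.16 (adjusted p = 0.000107) and Car2 at -0.48 ± 0.08 (adjusted p = 5.76e-05). Erythroid markers were lower in 5 of 5, and their part in the values of Slc4a1 and Car2 was not tested.

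Of the 22 genes named in the mean ratio 0 changed sign with median centring or quantile normalization, and Ostm1 (adjusted p = 0.0828) and Nedd4l (0.0596) were not called with quantile normalization. The counts moved with the scaling: with median centring 9 of the 11 Cftr partners were higher and 0 lower, and 5 of the 10 sodium absorption genes were higher and 1 lower. The change of the ratio at P1 against FD22 was called for 0 of the 75 tested genes of the 9 lists by limma, with 2 at an unadjusted p under 0.05.

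Over the 9 total RNA arrays the named genes most correlated with Cftr were Dis3l (Pearson r = 0.956), Fam13c (0.953) and Btbd3 (0.95). For Aqp3 they were Azin1 (0.979), Cpt1a (0.977) and Slc30a4 (0.975), for Aqp4 Tek (0.987), Slc12a4 (0.986) and Ifitm1 (0.985), and for Aqp1 Scyl3 (0.985), Adam8 (0.98) and Ppl (0.979). Slc12a2 was closest to Tmem101 (0.936), Pheta2 (0.933) and Smim20 (0.93), and Clcn3 to Eci3 (0.873), Hemgn (0.852) and Ywhab (0.844). These are descriptions over arrays that share 3 stages.

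Over all 18 arrays most of the closest genes were others. They were Btbd3 (0.902), Unc79 (0.888) and Dnaaf9 (0.866) for Cftr, Plpp1 (0.961), Lmcd1 (0.941) and Fpgs (0.937) for Aqp3, and Tek (0.981), Hsd17b11 (0.977) and Pard6b (0.974) for Aqp4. For Aqp1 they were Cd9 (0.958), Pla1a (0.955) and Icam2 (0.952), for Slc12a2 Arid4b (0.906), Copa (0.893) and Col5a2 (0.878), and for Clcn3 Cir1 (0.883), Zfand5 (0.867) and Hexim1 (0.848). Btbd3 for Cftr and Tek for Aqp4 stood among the first 3 in both. The 18 arrays hold pairs from the same lysate.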

How the data were processed

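Arrays were processed with GCOS 1.4, per the submitters' processing notes; the signal algorithm is not given in the sources used here. The deposited table holds linear intensity whose 2% trimmed mean was the same on every array. Of 31099 probe sets 57 controls were left out, and 21675 with a signal above 40.8 (the 40th percentile of all values) on at least 3 arrays were kept. Log2(signal + 5.5), where 5.5 is the 10th percentile, went into limma 3.58.1 (R 4.3.3; 6 group means, variance trend, 12 residual degrees of freedom), with Benjamini-Hochberg adjustment over the probe sets kept; the code was tested on simulated data. Figures were made with matplotlib 3.10.9.

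Replicates came from 3 litters per stage. Total and polysomal arrays of one number share a lysate (r of their deviations 0.186 to 0.488 in 9 of 9). The fit with the lysate as a block is therefore given where it changed a call on the ratio. Across stages all 3 deviations correlated above 0.1 for polysomal RNA at FD22 and FD19 (0.226 to 0.498) and total RNA at P1 and FD19 (0.119 to 0.313), where only the data show the pairing.

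The 7 genes and all lists were chosen with earlier results of these data known. From each list up to 3 called genes with the smallest p are named. Alternatives were another constant, filter, scaling or variance model, the block, arrays numbered 2 and 3 only, and leaving out each lysate. List counts under 2 other scalings and without FD22 lysate 2 were added after seeing the data.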

Additional observations from a re-analysis of the deposited data

How the results depend on the processing

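Each of 12 tested probe sets in 13 comparisons (156 results) was recomputed under 18 alternatives. The sign turned in 111 cases, 0 of them of a called result; 37 calls were lost and 46 gained, and the cause was not tested. Of the 14 turned values among the results named, 5 came from alternatives that keep every lysate. Quantile normalization gave -0.021 for Aqp3 and 0.018 for Slc12a2 in total RNA (FD22 against FD19), and -0.041 for the Cftr ratio of FD22. Median centring gave 0.032 for Slc12a2 in polysomal RNA (P1 against FD19) and 0.07 for the Cftr ratio of FD19. Arrays numbered 2 and 3 only, without the lysate numbered 1 of each stage, gave -0.011 for the mean Cftr ratio. Leaving out each lysate gave, for FD22 against FD19, Aqp3 changes of -0.066 to 0.149 in total and -0.362 to 0.106 in polysomal RNA. It gave -0.324 to 0.012 for Cftr in total RNA (P1 against FD19), -0.24 to 0.116 for the Cftr ratio of FD19, and for Slc12a2 in polysomal RNA -0.215 to 0.012 (P1 against FD22) and -0.135 to 0.092 (P1 against FD19). With the replicate block the called members numbered 5 in total RNA and 6 in polysomal RNA at P1 against FD22 (3 and 3 without it), 2 in the ratio at FD22 (1 without) and 4 at P1 (2 without). Aqp4 was then called at P1 against FD22 (adjusted p = 0.00784 in total RNA and 0.017 in polysomal RNA). Clcn3 1380547_at was called with it in polysomal RNA at P1 against FD19 (adjusted p = 0.0462). Equal numbers in these comparisons were not taken as pairs, since r was not above 0.1 for each pair. At FD22 the ratio had 2 called members with quantile normalization, 4 with median centring and 2 with arrays numbered 2 and 3 only. The mean ratio had 9 with median centring (5 without). Leaving out each lysate gave 2 to 4 in total RNA at FD22 against FD19, 2 to 5 in polysomal RNA at P1 against FD22, and 1 to 3, 0 to 2 and 1 to 3 in the ratio at FD19, FD22 and P1. Dim probe sets such as that of Clcn2 are limited by the signal over background.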

Other observations

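Over the whole interval in total RNA (P1 against FD19) 8 of 16 calcium-activated or volume-regulated channel genes rose and 3 fell, where 13.8% of the 11590 named genes tested rose and 17.2% fell. Of the subunits of the volume-regulated channel Lrrc8a changed by 0.66 ± 0.12 (adjusted p = 0.000326), Lrrc8b by 1.02 ± 0.17 (adjusted p = 0.000131), Lrrc8c by 0.75 ± 0.21 (adjusted p = 0.0128) and Lrrc8d by 0.99 ± 0.14 (adjusted p = 2.2e-05), all by limma. The fifth subunit, Lrrc8e, was at 0.91 ± 0.38 and was not called (adjusted p = 0.0848). Slc12a4, a potassium-chloride cotransporter, rose by 0.99 ± 0.22 (adjusted p = 0.00198), and 3 of 9 genes of its list rose and 0 fell. Slc12a4 and the Lrrc8 genes were chosen after their values were seen.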
